A study of Canis lupus familiaris with 7 samples.

Results

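The 3 control arrays of a study of dietary salt in dogs measured the RNA of the left ventricle, the thick-walled chamber that pumps blood into the aorta. They are 3 of the 7 arrays of the series and were chosen by their titles, which number them control 1, control 3 and control 4. Each is a 1-colour Affymetrix canine array, hybridised with biotin-labelled RNA of a male dog heart under the control protocol. The other arrays, of dogs on a low salt diet, were not used here. What the control dogs were fed, their age and strain, and whether each array holds RNA of 1 animal are not given in the labels, so the spread below is that between these arrays and may be technical. Only the array maker's controls with names starting in AFFX were left out, so 64 bacterial, viral and other reporter probe sets stayed in. That kept 42924 of the 43035 rows of the value table. Of these, 29254 carry 1 gene symbol and stand for 15115 genes, each represented by its brightest probe set.

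Cardiac muscle cells depend on a few tasks. They build sarcomeres, the filament bundles in which myosin pulls on actin. They move calcium in and out of the sarcoplasmic reticulum at every beat, and they make the ATP for both by oxidising fat and other fuels in its many mitochondria. Many of these proteins come from gene families in which one member is typical of the heart and another of skeletal muscle, smooth muscle or other tissues.

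Every level below is a probe set's signal: either the deposited intensity, on a linear scale, or log2(intensity + 16) after quantile normalization of the 3 arrays. Probe sets bind their targets with different strength, so the order of signals is not an order of transcript numbers. As a background limit, the 95th percentile of the 64 bacterial, viral and other reporter probe sets on the array was taken, a normalized log2 signal of 6.15. By that limit 6922 genes (45.8%) lay above background. The median of all genes was 6.01.

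The markers of the labelled tissue were bright. All 8 cardiomyocyte markers lay above the limit, with a median of 13.34. The lowest of them was MYBPC3, the cardiac myosin binding protein C, at 10.48. Markers of the other cells of the heart wall were also measured above the limit: 6 of 7 for fibroblasts, 5 of 7 for endothelium, 4 of 5 for smooth muscle, 3 of 4 for pericytes and 4 of 6 for macrophages. Their medians were lower, from 6.89 for macrophages to 9.38 for fibroblasts. Also above the limit were 3 of 3 mast cell, 2 of 4 T cell, 1 of 2 neutrophil and 1 of 5 adipocyte markers. So were 2 of 3 atrial cardiomyocyte markers, with a median of 10.44, and 4 of 9 skeletal muscle markers, with a median of 5.67. None of the 3 B cell markers, 0 of the 2 mesothelial markers and neither the 1 erythrocyte nor the 1 Schwann cell marker measured were above it. These marker counts stand beside 45.8% of all genes above the limit. The T cell, neutrophil and skeletal muscle counts were near that share. Some markers above the limit lay close to it, such as POSTN (6.17), CD3E (6.35) and CD14 (6.37). Of 44 genes typical of other tissues, such as the hormones of the pituitary and pancreas, liver proteins and lens crystallins, 37 were at or below the limit.

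Among genes with a probe set of 1 symbol, many of the highest signals came from the contractile, calcium and energy machinery, with ribosomal and other genes among them. The 9 probe sets brighter than any of these are 7 without a symbol, 1 with several and 1 reporter, described further on. The brightest gene was ACTA1, the skeletal alpha-actin, with deposited intensities of 20717, 19449 and 13124 on controls 1, 3 and 4, the order of arrays used throughout. RPS29, a protein of the small ribosomal subunit, read 20815, 19292 and 12543. SLC25A4, the translocator that exchanges ADP for ATP across the inner mitochondrial membrane, read 21487, 18844 and 12225. On the normalized scale these were 14.10 ± 0.06, 14.07 ± 0.02 and 14.05 ± 0.02 (SD, n = 3), so their 3 values overlap and their order is not settled by these arrays. The RPS29 probe set ends in _s_at, which marks probes that match several transcripts, and without probe sets ending in _s_at or _x_at RPS29 ranked 2923.

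PLN, the phospholamban that restrains the calcium pump, followed at 20536, 17806 and 12897. MYL2, the regulatory light chain of ventricular myosin, read 20574, 18563 and 10864. ANKRD1, a titin-associated protein that responds to strain, read 19473, 17557 and 12080. All 3 were low on control 4 and high on control 1 as deposited. Once normalized, none of the 3 had a range over the arrays above 0.19. ATP5IF1, the inhibitor of the mitochondrial ATP synthase, read 18150, 17777 and 11449. FABP3, which carries fatty acids through the cytosol of muscle, read 17599, 15906 and 11285. TRDN, the triadin of the calcium release complex, read 15826, 16223 and 11344. These were again lowest on control 4. They completed the 10 brightest genes with LOC608162, a locus without a gene name, which lay between PLN and MYL2 at 18312, 18852 and 12120.

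Below the first 10 came the beta and alpha subunits of the ATP synthase (ATP5F1B at 13.81 and ATP5F1A at 13.68) and RYR2, the calcium release channel of the heart, at 17460, 14833 and 10486. The phosphate carrier SLC25A3 lay at 13.72 and the mitochondrial porin VDAC1 at 13.59. Fuel enzymes were represented by the malate dehydrogenase MDH1 (13.64), the medium-chain acyl-CoA dehydrogenase ACADM (13.61) and the mitochondrial aspartate aminotransferase GOT2 (13.55). UQCRQ, a subunit of complex III, closed the first 30 at 13.51. PDLIM5, a Z-disc protein, read 13.66 and the spectrin SPTBN1 13.52. Genes found in most cells stood among them: the chaperone HSP90AA1 (13.75), the RNA-binding proteins YBX3 (13.79) and PCBP2 (13.74), the lysosomal LAPTM4A (13.80), the ribosomal protein RPL32 (13.69) and the 14-3-3 protein YWHAE (13.58). LOC610787, LOC480043 and LOC610983 filled the other places, at 13.74, 13.65 and 13.55.

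**Figure D1:**
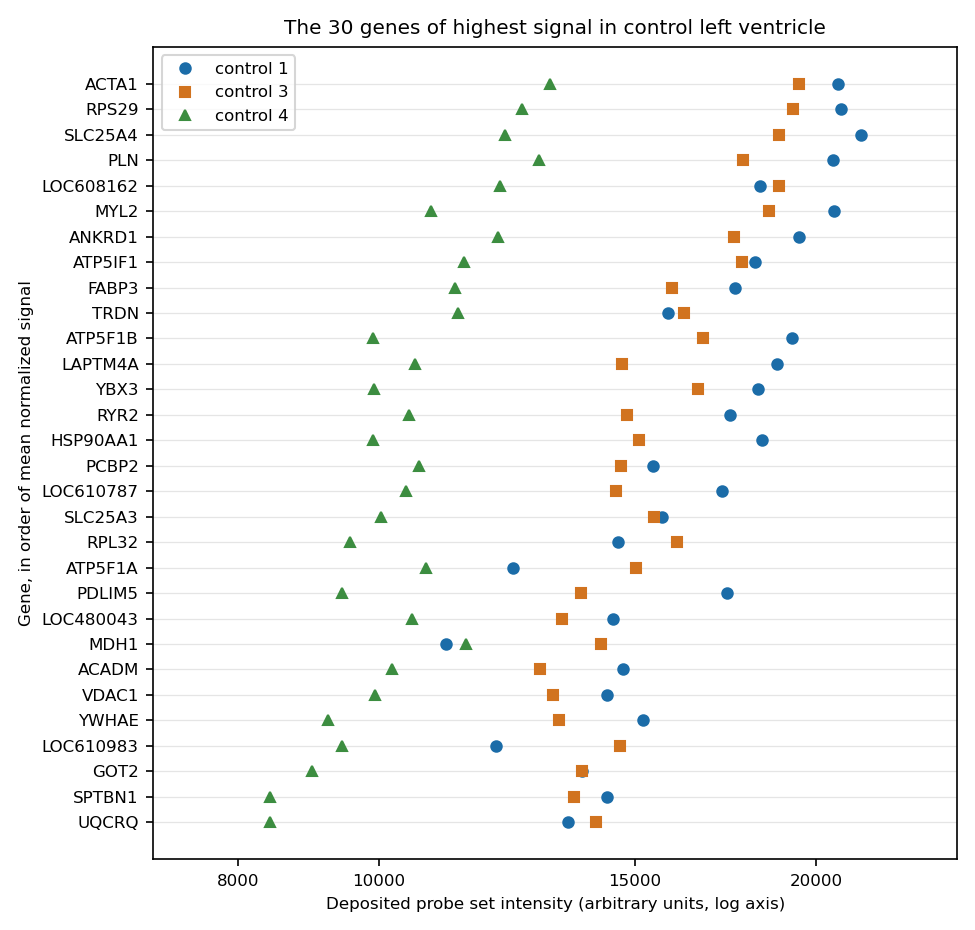
Deposited probe set intensity (log axis) of the 30 genes of highest mean normalized signal, 1 point per control array. Control 4 has the lowest point for 29 of the 30 genes, the exception being MDH1, while the order of the genes is similar on the 3 arrays.

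The order within this top group was only coarse. In each of the 30 neighbouring pairs among the first 31 genes, the 3 values of one gene overlapped those of the next. The group itself held together better: all 30 genes were among the first 100 of every array, with 63 as the lowest rank on any of them, and 21 were among the first 30 of every array. The lowest rank of the 100 brightest genes on any array was 129.

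The signal was concentrated in few genes. The 100 brightest of the 15115 genes held 21.7%, 20.4% and 16.7% of the summed gene intensity on controls 1, 3 and 4, a mean of 19.6% ± 2.63 (SD, n = 3). The 10 brightest held 3.31%, 2.95% and 2.30%. Control 4 had the lowest share in both cases. On that array the deposited intensity of the top 100 genes had a median of 8414, against 11860 and 11867 on controls 1 and 3, and 99 of the 100 genes had their lowest value there. The array maker's spiked Cre control, a bacteriophage transcript added at hybridisation, read 40807, 34814 and 21073. The median intensity of all probe sets went the other way, at 39.6, 31.5 and 51.3. The part of either in the lower share was not tested.

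Genes were sorted into 17 lists by role, of which 16 had measured members. Of the 100 brightest genes 60 were in a list and 40 in none, 8 of them known only by a LOC symbol. The lists were chosen with earlier results of these data known, so a high count is partly built in. The counts below stand beside 100 of 15115 genes for the top 100 and 1000 of 15115 for the top 1000.

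Oxidative phosphorylation had the most. Of 67 nuclear genes for subunits and close partners of the respiratory chain and ATP synthase, 18 were in the top 100 and 54 in the top 1000, and their median of 12.01 stood against 6.01 for all genes. They held 6.11% ± 0.599 (SD, n = 3) of the summed gene intensity. After the ATP synthase genes and UQCRQ came COX4I1 (13.50), subunit 4 of cytochrome c oxidase, UQCRFS1 (13.45), the Rieske iron-sulfur protein of complex III, and cytochrome c itself (CYCS, 13.43). Complex I was represented by NDUFA12 (13.39), NDUFB6 (13.34), NDUFA5 (13.34), NDUFB5 (13.15) and NDUFA6 (13.09). NDUFA4, which is named like a complex I subunit but belongs to cytochrome c oxidase, read 13.33. Only 1 of the 67 lay at or below the limit. The 26 mitochondrially encoded genes of the fixed list were not analysed here, since no probe set carries 1 of those symbols.

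The sarcomere list followed with 11 of 51 genes in the top 100 and 31 in the top 1000. It held 3.68% ± 0.498 (SD, n = 3) of the gene intensity. MYL3, the essential light chain of ventricular myosin, read 12895, 12500 and 8537. MYH7, the slow beta-myosin heavy chain of the ventricle, read 12236, 12526 and 8102. The cardiac alpha-actin ACTC1 read 11783, 12704 and 9096. On the normalized scale these lay between 13.40 and 13.45, with no gap between them larger than their spread. Tropomyosin TPM1 (13.29), the cardiac troponin I gene TNNI3 (13.28) and the LIM proteins FHL1 (13.18) and CSRP3 (13.03) completed the group. Titin, TTN, the giant spring of the sarcomere, came at rank 115 with 12.90, and cardiac troponin C (TNNC1) and T (TNNT2) at ranks 155 and 225. The Z-disc cap TCAP (9.30), desmin (DES, 8.97) and LDB3 (8.27) had much lower signals.

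Calcium handling was split. PLN, TRDN, RYR2 and the calcium pump ATP2A2 (12730, 10206 and 8009) were in the top 100, and calmodulin CALM2 was at 12.66. The median of the 21 genes was nevertheless 7.73, and 5 lay at or below the limit. Among these were CACNA1C, the pore of the L-type calcium channel, at 29.5, 40.7 and 44.9, and SLC8A1, the sodium-calcium exchanger, at 60.9, 1.87 and 29.3. Both proteins are well known in the heart, so a low probe set signal is not evidence of a missing transcript.

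In the creatine kinase and nucleotide shuttle list SLC25A4, SLC25A3 and VDAC1 were in the top 100 of 11 measured genes. The mitochondrial creatine kinase CKMT2 read 3443, 3420 and 2915 and ranked 410. The cytosolic kinases CKM and CKB are unnamed here. In the tricarboxylic acid cycle list MDH1, GOT2 and the isocitrate dehydrogenase IDH2 (13.28) were in the top 100 of 19 genes.

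Fatty acid uptake and oxidation had FABP3 and ACADM in the top 100 of 29 genes, and 16 in the top 1000. The acyl-CoA binding protein DBI followed at 12.68, the thiolase ACAA2 at 12.17 and lipoprotein lipase (LPL) at 12.06. The trifunctional protein genes HADHA and HADHB read 11.40 and 10.99, and the fatty acid transporter CD36 read 10.42. Glycolysis had no gene among the first 100 and 11 of 20 among the first 1000. Its brightest were ALDOA (12.46), PFKM (12.24) and LDHA (12.18). GAPDH, a glycolytic enzyme of nearly all cells, showed how far a single probe set can mislead: its named probe set read 182, 150 and 210, whereas the array maker's own GAPDH probe set for the 3′ end, left out of the ranking, read 12261, 12964 and 7035.

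The protein-making genes were bright as well. Of 59 cytosolic ribosomal protein genes 11 were in the top 100 and 45 in the top 1000, with a median of 11.85 and 4.70%, 5.04% and 4.06% of the gene intensity. After RPS29 and RPL32 came RPL24 (13.47), RPS27A (13.39) and RPL23 (13.39). All of the 11 except RPL19 were represented by probe sets ending in _s_at or _x_at. Without such probe sets 3 ribosomal protein genes were in the top 100. Of 21 translation factors EEF1B2 (13.47), TPT1 (13.42) and EIF4G2 (13.08) were in the top 100.

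Of the chaperones HSP90AA1 and the small heat shock protein HSPB8 (13.30) were in the top 100 of 20 genes, followed by HSPB1 (12.97). Myoglobin (MB), the oxygen store of the muscle cell, read 11172, 12046 and 7510. It was the only one of 20 oxygen, iron and antioxidant genes in the top 100, followed by the redox regulator TXNIP (12.98) and the peroxiredoxin PRDX1. The actin-severing proteins CFL2 (13.08) and DSTN (13.06) led the cytoskeleton list, ahead of the tubulin TUBA4A. The ubiquitin and proteasome list had 0 of 38 genes in the top 100, its brightest being UBE2D3, UBB and UBE2B. The hypertrophy list had 3 of 10, ACTA1, ANKRD1 and FHL1, while NPPB, the B-type natriuretic peptide, read 42.4, 120 and 22.2 with a mean of 6.04, below the limit.

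The matrix genes, products mainly of fibroblasts, lay lower, with a median of 8.71 and no gene in the top 100. The small proteoglycan lumican (LUM) was the brightest at 7999, 8440 and 6683. The matricellular SPARC read 7355, 7194 and 3767, and decorin (DCN) 3493, 4096 and 2115.

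**Figure D2:**
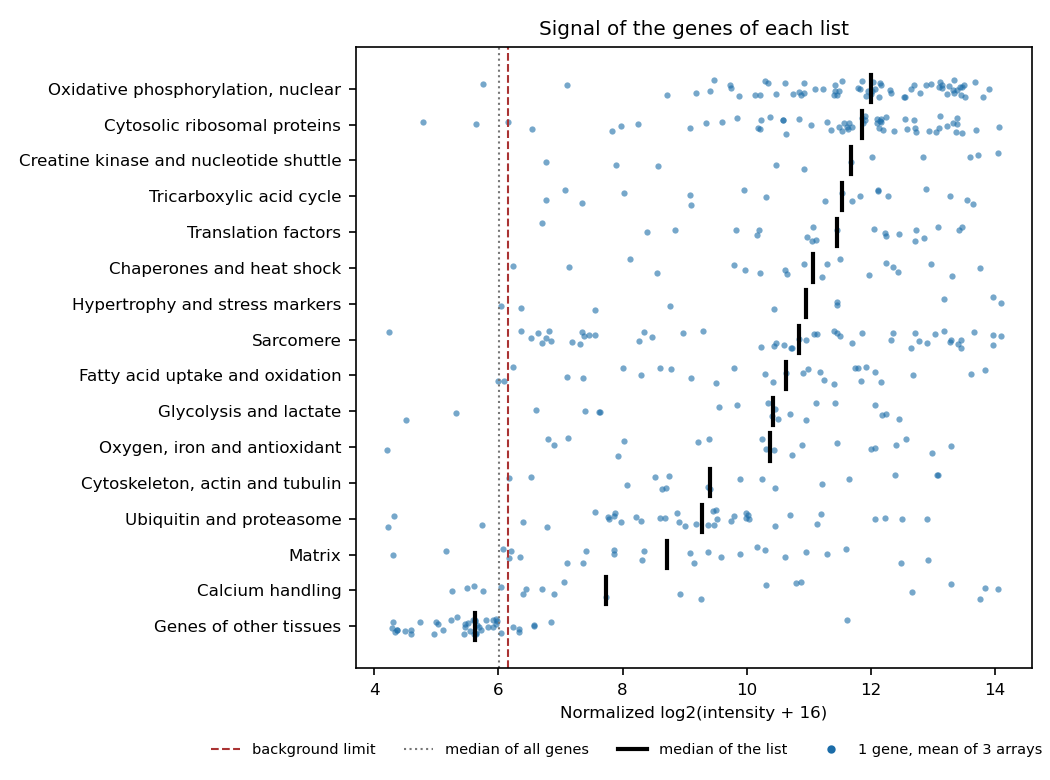
Mean normalized log2 signal of each measured gene of the 16 lists, 1 point per gene, with the list's median as a bar, the background limit of 6.15 (dashed) and the median of all genes of 6.01 (dotted). The nuclear oxidative phosphorylation genes have the highest median, 12.01, and 37 of the 44 genes of other tissues lie at or below the limit.

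Some genes in no list were in the top 100 too. They included CTNNB1 (beta-catenin, 13.31) and CDH2 (N-cadherin, 13.14) of the intercalated disc, where neighbouring muscle cells join, the pyruvate carrier MPC2 (13.35), the mitochondrial CHCHD10 (13.25), the autophagy gene MAP1LC3A (13.23), the histone gene H3-3A (13.32) and MLIP (13.06), a muscle protein that binds lamin. These 7 were chosen after their values were seen.

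Isoform dominance was examined in 45 families, 40 of which had at least 2 members measured. In 35 the same member was brightest on each of the 3 arrays, and in 34 its 3 values lay above all those of the second member. The median gap between the 2 brightest members was 2.55 on the log2 scale. Because probe sets of a single gene also differ, each gap was set beside that difference: across all genes with several probe sets, the brightest exceeded the second by a median of 0.97 and the 75th percentile was 1.83. In 24 families the gap exceeded 1.83. In 13 it exceeded 4.11, the 90th percentile of the whole spread from brightest to dimmest probe set of a gene. Among the top 100 genes with several probe sets these values were higher. There the brightest exceeded the second by a median of 2.56, with a 75th percentile of 4.52. The 90th percentile of their whole spread was 8.18, which no family gap reached, the largest being 7.99.

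Those 13 were nearly all families with a known heart or muscle member. So were many of the 40 families compared, which were chosen with earlier results of these data known. That trait of the 13 is therefore largely built in. RYR2 exceeded RYR1, the release channel of skeletal muscle, by 7.99 ± 0.97 (SD, n = 3), with RYR1 below the background limit at 58.8, 6.13 and 88.8, and by 5.32 with the mean of all probe sets. MB exceeded the embryonic globin HBE1 by 7.60, and LDHA exceeded the testis form LDHC by 6.83. The heart form LDHB was left out of that comparison because its probe sets carry several symbols. The brighter of them, shared with LOC609911 and LOC475101, read 12067, 9201 and 6636 (13.12), above the 12.18 of LDHA, so the gap does not show LDHA as the dominant form. The means of RYR1, HBE1 and LDHC, and of ACTN4 and MYBPC2 below, lay under the background limit, which makes these gaps depend on the offset of 16.

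Troponins showed the same order. TNNC1 read 7368, 7875 and 4613 against 73.1, 49.3 and 81.7 for the fast skeletal TNNC2, a gap of 6.27 ± 0.26. TNNI3 read 12313, 11329 and 7195 against 285, 160 and 184 for the fast skeletal TNNI2, a gap of 5.50 ± 0.28. TNNT2 read 5951, 5201 and 4437 against 436, 308 and 387 for the slow skeletal TNNT1, a gap of 3.72 ± 0.16. The order was the same on each array. Without probe sets ending in _s_at or _x_at the troponin C gap was 1.90 and the troponin T gap 7.39. The slow skeletal troponin I gene, TNNI1, is unnamed here.

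Other Z-disc and pump families had gaps of like size. MYOZ2 exceeded MYOZ1 by 5.96, ACTN2, the alpha-actinin of the sarcomere, exceeded the non-muscle ACTN4 by 5.89, and CSRP3 exceeded CSRP2 by 5.65. ATP2A2, the calcium pump of heart, exceeded ATP2A1, that of fast skeletal muscle, by 5.80 ± 0.57, or by 1.29 without probe sets ending in _s_at or _x_at. ALDOA exceeded ALDOC by 5.72, PFKM exceeded PFKL by 4.80, and MYBPC3 exceeded the fast skeletal MYBPC2 by 4.40, or by 2.09 with the mean of all probe sets.

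Among the myosin heavy chains MYH7 stood 4.38 ± 0.19 (SD, n = 3) above MYH7B, which read 443, 601 and 482, and 1.76 above it with the mean of all probe sets. The other 7 measured heavy chains ran from 5.50 (MYH2) to 7.89 (the non-muscle MYH9), with the smooth muscle MYH11 at 7.59. The alpha heavy chain MYH6, typical of atria, is unnamed here, so the ratio of alpha to beta myosin could not be read. Of the regulatory light chains MYL2 exceeded the atrial MYL7 (2935, 3531 and 2206) by 2.51 ± 0.14. Of the essential light chains MYL3 exceeded the non-muscle MYL6 by 1.80 ± 0.32, and the atrial MYL4 followed at 10.44.

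The sarcomeric actins were close. ACTA1 lay above ACTC1 on every array, by 0.65 ± 0.03 (SD, n = 3), a ratio of 1.57. That gap is larger than the spread between arrays but smaller than the usual difference between probe sets of 1 gene: the other ACTA1 probe sets read 13.23 and 12.29, the second of ACTC1 12.24. The order of the actin transcripts therefore cannot be read from it. TPM1 exceeded TPM4 by 0.83 ± 0.21 in the same way.

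In the mitochondrial families SLC25A4 exceeded SLC25A6 by 3.57 and the ubiquitous SLC25A5 lay at 8.57. COX4I1 exceeded COX4I2, its partner known from lung, by 3.77. VDAC1, VDAC2 and VDAC3 followed each other at 13.59, 12.84 and 12.02. FABP3 exceeded FABP5 by 2.59 and the fat cell form FABP4 by more, since FABP4 lay at 10.61. ACSL1, the main acyl-CoA synthetase of heart, exceeded ACSL3 by 4.07 ± 0.05, or by 1.61 with the mean of all probe sets. In the VDAC family that mean reversed the order, to -1.87 for VDAC1 minus VDAC2.

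In some families the brightest probe set was not that of the member best known from skeletal or heart muscle. PYGB, the brain form of glycogen phosphorylase, read 4975, 5044 and 3169 against 887, 1151 and 730 for the muscle form PYGM. With the mean of all probe sets PYGB minus PYGM was -1.39. CPT1A, the liver form of carnitine palmitoyltransferase, read 670, 678 and 631 against 143, 126 and 107 for the muscle form CPT1B, and the gap of 2.29 became 0.19 with that mean. GJA5 (connexin 40, 554, 393 and 284) exceeded GJA1 (connexin 43, 174, 89.8 and 239), the main gap junction protein of the ventricle. On control 4 these connexins differed by only 0.24, and GJA5 minus GJA1 was -0.55 with the mean of all probe sets. The insulin-responsive glucose transporter SLC2A4 read 15.6, 19.4 and 40.9, below the limit, against 9.87 for SLC2A3 and 9.56 for SLC2A1. The hexokinases read 6.60 for HK1 and 4.51 for HK2, the form typical of insulin-sensitive muscle.

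PDK1 exceeded PDK4, the pyruvate dehydrogenase kinase induced by fasting, by 0.82, but unevenly: PDK4 read 3373, 3204 and 4265, and on control 4 the gap was 0.42. ENO1 exceeded the muscle enolase ENO3 by 0.76 ± 0.53, with 0.21 on control 1, and ENO1 minus ENO3 was -1.98 with the mean of all probe sets. PGAM2 exceeded PGAM1 by 0.98, PPARA exceeded PPARG by 1.68, EEF1A1 exceeded EEF1A2 by 3.50, FTL exceeded FTH1 by 2.59, HK1 exceeded HK3 by 1.97 and FHL1 exceeded FHL2 by 0.40, which became -2.59 with that mean. HK3 lay below the background limit, so that gap depends on the offset, and it was 0.55 with the mean of all probe sets. The PDK1, ENO1, PGAM2, PPARA and FHL1 gaps did not exceed 1.83. Neither did the gaps of MYL3, ACTA1, TPM1, VDAC1, GJA5 and SLC2A3 over the second member of their families.

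The brightest member changed from array to array in 5 families. HSPB8 led the small heat shock proteins on controls 1 and 3 (11548 and 10717 against 6423 and 8178 for HSPB1), whereas HSPB1 led on control 4 (8988 against 8340). COX7A1 and COX7A2L (gap 0.26 ± 0.65), the sodium pump beta subunits ATP1B1 and ATP1B3 (0.73 ± 0.84) and the estrogen-related receptors ESRRA and ESRRB (0.54 ± 0.85) also changed places, the receptors at levels below the background limit (5.65 and 5.12). The fifth was the natriuretic peptides, in which NPPB and NPPC were both at 6.04, below the limit. NPPA, the atrial natriuretic peptide, is unnamed here.

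**Figure D3:**
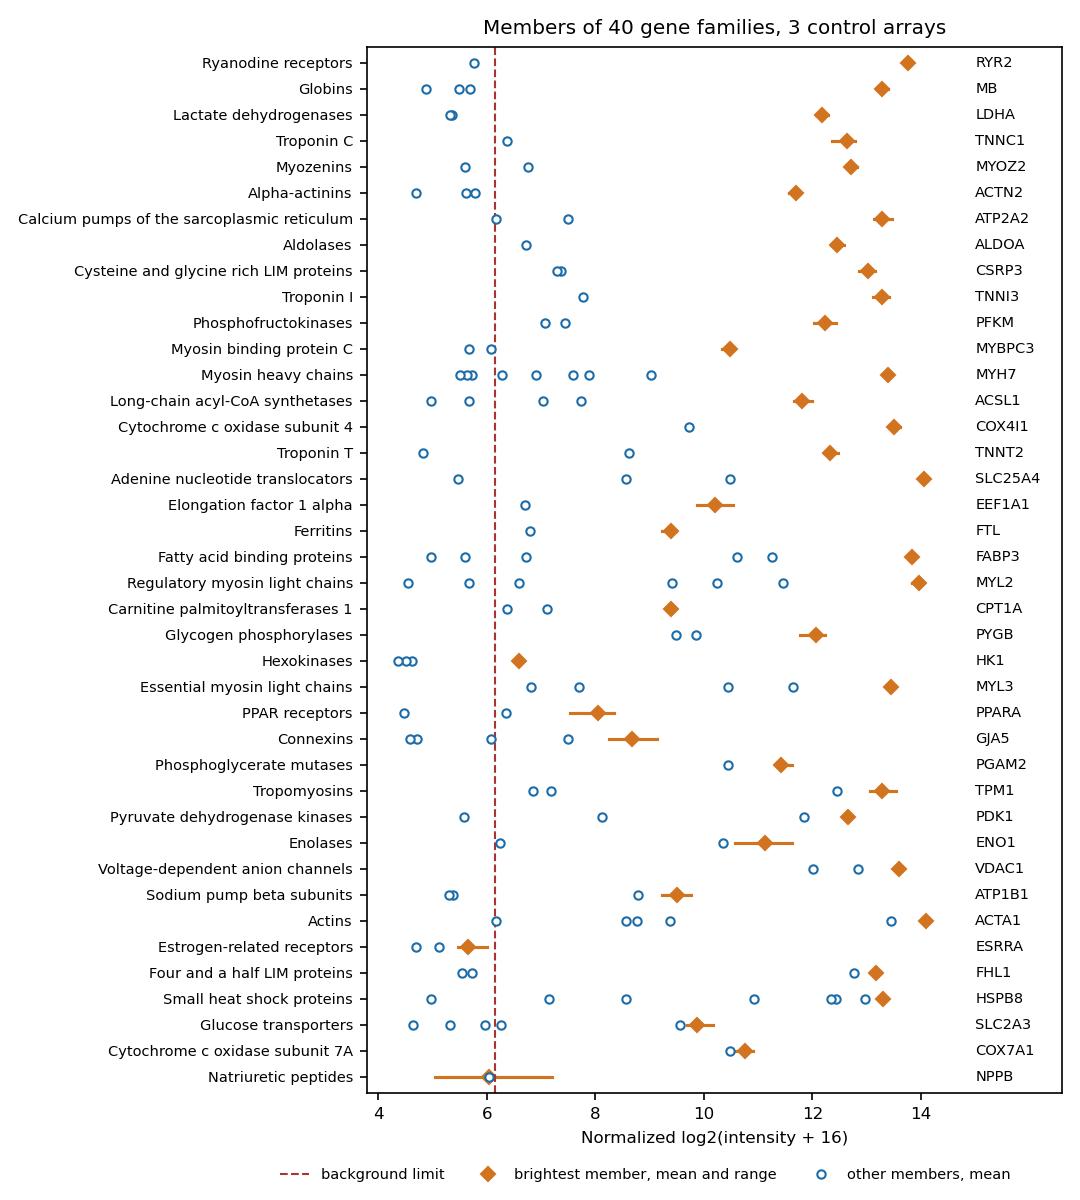
Mean normalized log2 signal of the measured members of 40 families, ordered by the gap between the brightest and the second member. Diamonds are the brightest member (named at the right) with a line from its lowest to its highest array, circles the other members, and the dashed line is the background limit of 6.15. The gap runs from 7.99 for the ryanodine receptors to about 0 for the natriuretic peptides.

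How far a probe set can stand for its gene was seen from genes with several. In 8254 genes with at least 2 probe sets of 1 symbol, the brightest exceeded the dimmest by a median of 1.47, and in 65.4% the difference was 2-fold or more. In the top 100 genes, 84 of which have several, it was far larger, with a median of 5.39 (41.8-fold), and in 90.5% it was 2-fold or more. Since each gene is ranked by its brightest probe set, a wide spread among the top genes is partly built into their choice.

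YWHAE had the widest spread of the top 100 genes, 9.49 between probe sets reading 15214, 13305 and 9230 and 1.02, 0.533 and 1.64, although its second lay only 0.44 below the brightest. LOC610787 (9.17), NDUFAB1 (8.93), PDLIM5 (8.87) and SPTBN1 (8.54) followed. Large muscle genes covered by many probe sets varied in the same way. TTN had 20 probe sets, from 12.90 down to 5.76, with 6 at or below the limit. MYH7 had 5, at 13.40, 9.86, 7.37, 6.04 and 6.01, the last 2 below the limit. TRDN had 9, from 13.83 to 6.94, and the second of RYR2 read 8.42 against 13.76. In contrast PLN (14.05, 12.80 and 12.70) and TNNT2 (12.33, 11.76 and 11.27) had probe sets within a narrow band.

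**Figure D4:**
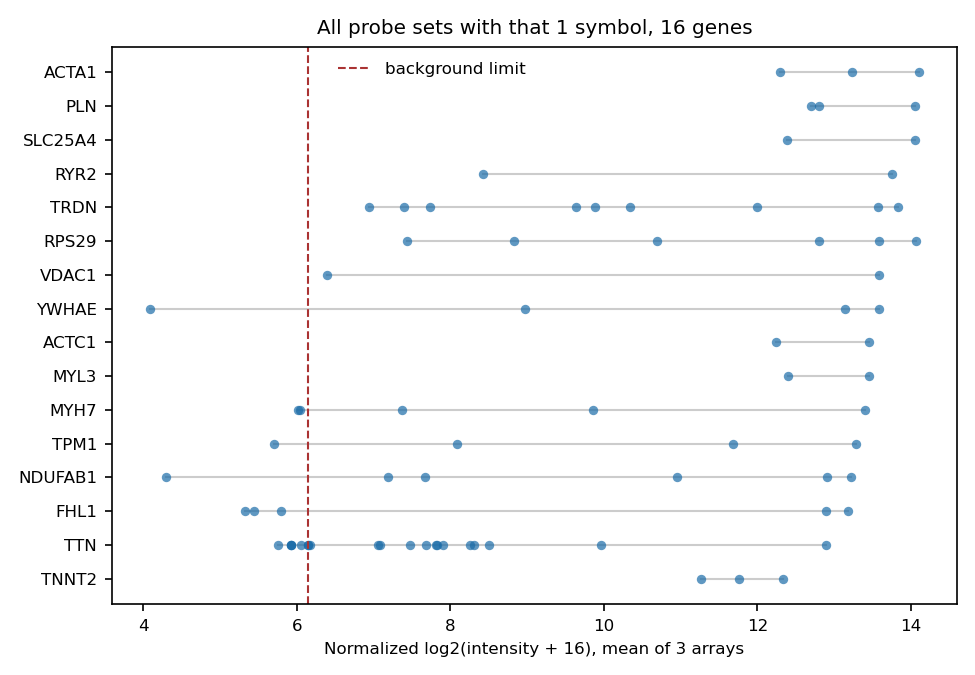
Mean normalized log2 signal of every probe set with 1 symbol for 16 genes, 1 point per probe set and a line over their span, with the background limit of 6.15 dashed. The 3 probe sets of PLN lie between 12.70 and 14.05, whereas the 5 of MYH7 and the 20 of TTN reach from over 12 down to about 6.

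The brightest probe sets of all were mostly outside this ranking of named genes. Of the 20 brightest, 5 have 1 symbol, 1 has several, 13 have none and 1 is a reporter. That reporter read 37501, 28739 and 17536, a normalized mean of 14.70, while the next of the 64 reached only 6.52. It was kept among the 64 from which the background limit was taken. The array maker's spiked Cre control, left out of the ranking, read 40807, 34814 and 21073. Whether the reporter reads the same added transcript, rather than RNA of the ventricle, was not tested. A run of 13 consecutively numbered probe sets, CfaAffx.25 to CfaAffx.37, held 10 of the first 20 places and all 13 lay within the first 67. The brightest of them read 27391, 22003 and 14614 and the dimmest 13661, 12710 and 8981. They have no symbol and are unnamed here. Probe sets without a symbol made up 65.0% of the first 20 and 42.0% of the first 50. In the first 100 their share was close to the 30.7% found over all 42924 probe sets. A top list of named genes therefore leaves out much of the first 20 places. The excess of probe sets without a symbol was limited to the brightest places and was nearly gone in the first 100.

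The 3 arrays agreed best at the top. Over all 42924 probe sets the Pearson correlation of log2(intensity + 16) was 0.930 between controls 1 and 3, 0.914 between 3 and 4 and 0.892 between 1 and 4, and Spearman's was 0.822, 0.808 and 0.774. Over the brightest of 3 equal parts of the probe sets Pearson's was 0.952, 0.941 and 0.922. The pairs share arrays, so the values are not independent. After normalization 83.7%, 82.0% and 78.6% of the probe sets lay within 2-fold for the same pairs. The median difference over the top 100 genes was 0.11, 0.12 and 0.13, against 0.38, 0.41 and 0.46 over all probe sets. Control 4 was the least like the others in each of these measures.

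Of the 100 brightest genes of each array, 83 were shared by all 3, and 115 were among them on at least 1. Controls 1 and 3, and 3 and 4, shared 91, controls 1 and 4 shared 86. Of the first 1000 genes 865 were shared by all. Agreement fell with the signal: in the brightest of 10 equal bands of genes the median SD was 0.19 and 3.84% had a range of 2-fold or more, whereas among genes at 5.02 to 5.37, the SD was 0.66 and 68.4% had. In the lowest band the SD of 0.18 is set by the offset of 16.

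The steadiest genes of the top 100 were RPS29 and COX5B, a subunit of cytochrome c oxidase, each with a range of 0.03 over the arrays, SLC25A4 and ATP5PO, the stalk subunit of the ATP synthase, with 0.04, and NDUFA12 with 0.05. COX5B read 10766, 11141 and 7785 as deposited and 13.25, 13.27 and 13.24 normalized. The median range in the top 100 was 0.21, and no gene reached 2-fold. Quantile normalization gives the 3 arrays the same set of values, and these genes were chosen by high mean. Small ranges at the top are therefore partly built in. As deposited, 99 of the 100 were lowest on control 4. MDH1 had the widest, 0.66, being lowest on control 1 (13.29) and highest on control 4 (13.95).

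Of the first 1000 genes 35 (3.50%) had a range of 2-fold or more, against 4997 (33.1%) of all genes. This contrast depends on quantile normalization: with array medians set equal instead, 325 of the first 1000 had such a range. All genes were not counted under that setting. MYL4, the atrial essential light chain, varied most, at 1520, 3616 and 477, a range of 2.68. Its second probe set gave the same order, at 525, 1140 and 171. MYL7, the atrial regulatory light chain, was also highest on control 3 and lowest on control 4 (11.67 and 11.21), by much less, and the third measured atrial marker, BMP10, lay below the limit. The summed deposited intensity of the 3 atrial markers was 4505, 7156 and 2731. That of the 8 cardiomyocyte markers was 92942, 87811 and 61090, also lowest on control 4. The part of atrial tissue in the MYL4 values was not tested.

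SFT2D2, a vesicle transport gene, read 4440, 1707 and 675, and the autophagy gene ATG101 6398, 1474 and 1152, both far higher on control 1. SPG21 read 603, 2957 and 2402, low on control 1 alone. The range of these was 2.59, 2.28 and 2.17. LOC476825 (1.89), RPL17 (1.72), MAP3K20 (1.61) and TMEM97 (1.45) followed. The odd array was control 1 in 13 of the 35 genes, control 3 in 11 and control 4 in 11.

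COL3A1, the type III collagen, was as high on control 1 as on control 3 and low on control 4 (2436, 2508 and 628), and it did not stand alone. Of 23 matrix genes above the limit, 16 were lowest on control 4 after normalization, against 2535 of the 6922 genes above the limit, and 10 (43.5%) had a range of 2-fold or more, against 18.5%. COL1A2 read 953, 883 and 203, COL1A1 744, 935 and 390, fibrillin FBN1 1487, 1341 and 409, fibronectin FN1 1002, 1057 and 395 and COL15A1 677, 393 and 121. LUM did not follow, at 12.89, 12.88 and 12.98. As deposited, without normalization, the 7 fibroblast markers summed to 15925, 18350 and 10919. Their normalized means ranged by gene from 5.53 (PDGFRA) to 12.92 (LUM). The 8 cardiomyocyte markers, summed in the same way, were also lowest on control 4, at 92942, 87811 and 61090. The lower fibroblast sum there is thus not particular to these markers. In bulk tissue fewer fibroblasts and less RNA per fibroblast cannot be told apart, and the part of cell makeup was not tested.

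FABP4, a fatty acid carrier of fat cells and capillary endothelium, read 888, 2964 and 1415, highest on control 3. Of the other adipocyte markers ADIPOQ, LEP, CIDEC and PLIN1 lay below the limit, with ADIPOQ at 1.52, 61.2 and 55.6. The summed intensity of the 5 markers, 915, 3058 and 1581, was thus nearly all FABP4.

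**Figure D5:**
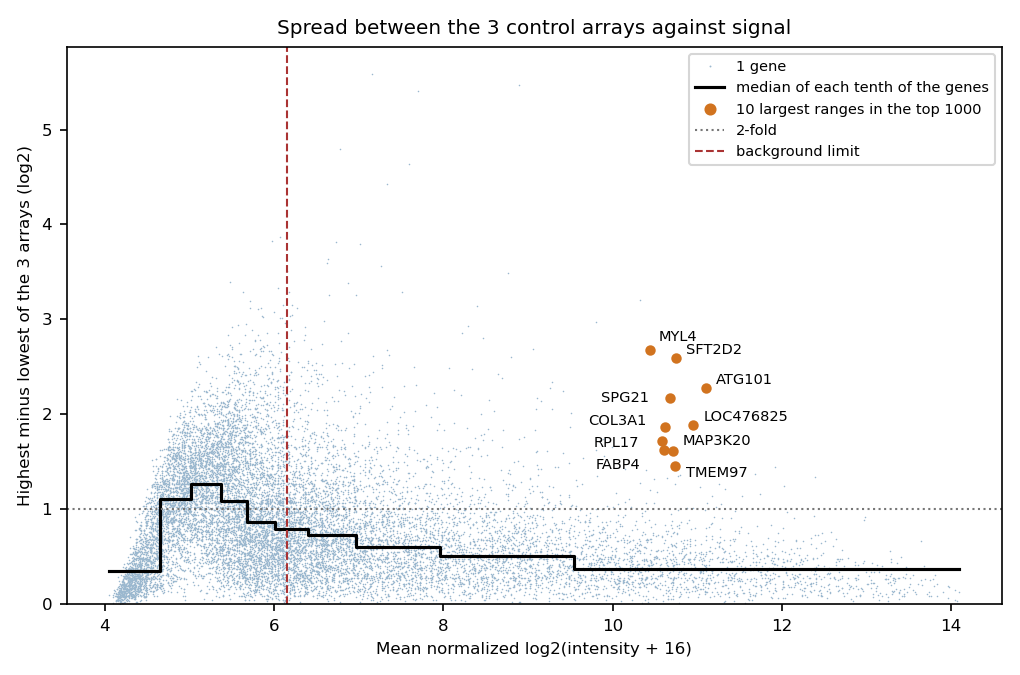
Range over the 3 control arrays (highest minus lowest normalized log2 signal) against mean signal, 1 point per gene for 15115 genes. The black line is the median range of each of 10 equal bands of genes, the dotted line marks 2-fold and the dashed line the background limit of 6.15. The median falls to 0.37 in the brightest band, and the 10 most variable of the first 1000 genes, from TMEM97 (1.45) to MYL4 (2.68), lie well above it.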

How the data were processed

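The labels' protocols state Trizol extraction and Affymetrix labelling. The authors deposited linear probe set intensity values, made with GCOS per the submitters' processing notes; no source used here gives its version, the summarisation or a genome build. The trimmed mean was 148 on each array. Arrays were grouped by title. From the deposited intensity, log2(intensity + 16) was computed and quantile normalized over the 3 arrays (Python 3.11.15, numpy 2.4.6, pandas 2.3.3).

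Names came from the platform annotation: 29254 probe sets have 1 symbol, 439 several and 13231 none, and 27680 were found by gene number in a RefSeq table of UU_Cfam_GSD_1.0, used for names only. No sequence is shown.

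Named genes are the first 30, the 2 brightest of each family, the 3 brightest of each list, the 10 most variable of the first 1000, the 5 steadiest of the first 100 and the 5 with the widest probe set spread. Further members are named for their role. The lists, families and members were chosen with earlier results of these data known, and the background limit after the data were seen. With 1 group no test was made. The ranking code was tested on simulated data. The number of arrays limits the precision.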

Additional observations from a re-analysis of the deposited data

How the results depend on the processing

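No paired analysis was possible because the 3 arrays form 1 group and no test was made. The mean correlation of 0.912 ± 0.019 became 0.847 with an offset of 1, 0.950 with 64 and 0.938 over the brightest of 3 equal parts, and lay between 0.892 and 0.930 without 1 array. The 19.6% of signal in the top 100 genes became 27.9% with the mean of all probe sets of a gene, 22.9% without probe sets ending in _s_at or _x_at and 12% over all probe sets. The same-gene difference of 1.47 became 2.31 with an offset of 1 and 0.80 with 64, and 1.49 to 1.54 without 1 array. The 35 variable genes became 325 with array medians set equal, 4997 over all genes, and 13 to 16 without 1 array, where only 2 arrays are left to differ.

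The choice of probe set changed the order most. With the mean of all probe sets 43 of the top 100 genes remained, 15 of the first 30 stayed in the top 100 and the lowest rank among them was 1684; 63 of the new top 100 have a single probe set, against 16 before. Without _s_at and _x_at probe sets 58 remained, 25 of the first 30 had a value, 22 of these stayed in the top 100 with 11019 as the lowest rank, and ribosomal protein genes in the top 100 fell from 11 to 3. Of 34 families with non-overlapping members 29 kept their order with the mean, and the others reversed: ENO1 minus ENO3 became -1.98, PYGB minus PYGM -1.39, VDAC1 minus VDAC2 -1.87, GJA5 minus GJA1 -0.55 and FHL1 minus FHL2 -2.59. Without _s_at and _x_at probe sets VDAC1 minus VDAC2 was -6.45. The cause was not tested. Values as deposited, equal medians and leaving out 1 array reversed none of the 34. Other limits put 5525 or 8515 genes above background, against 6922.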

Other observations

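The mean of all probe sets gives another view of the top, in which single-probe-set genes rise. MYL2 (13.97) then ranked first, followed by HSP90AA1 (13.75), SLC25A3 (13.57), LOC610983 (13.55) and EEF1B2 (13.47). FABP3, SLC25A4, ACTA1 and PLN stayed within the first 20, PLN at 13.19, and TNNI3 and COX5B rose into them from ranks 67 and 69. MYL2 was the only gene in both lists of 10.

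Gene groups also differed between arrays, in patterns chosen after their values were seen and not tested. Of 27 fatty acid genes above the limit, 17 were highest on control 4, against 2414 of all 6922 genes above it, and 7 (25.9%) had a range of 2-fold or more, against 18.5%. DECR1, which handles unsaturated fatty acids, read 949, 1859 and 2264, and the uncoupling protein UCP3 800, 335 and 1276. Of 66 oxidative phosphorylation genes 39 were highest on control 3, as were 36 of 57 ribosomal protein genes, against 2361 of 6922. None of those 66 had a range of 2-fold.

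Of the 20 probe sets of titin (TTN), 6 of them at or below the limit, 16 were highest on control 1. Their medians were 7.66, 7.09 and 6.98 on controls 1, 3 and 4. Of the 6922 genes above the limit, 2147 were highest on control 1. Those are separate genes, whereas the titin probe sets read 1 gene on the same arrays and are not independent counts. The second brightest read 1856, 596 and 820, whereas the brightest read 8866, 8158 and 6252.

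Chosen in the same way, TSHB, the beta chain of the pituitary hormone thyrotropin, was the exception among the genes of other tissues. It ranked 434 at 3174, 3595 and 2692 (11.61 ± 0.08), and its second probe set read 2110, 2332 and 1743. The next of that list, the crystallin CRYGS and the synaptic SYT1, were at 6.85 and 6.57. The platform annotation is the only source of the name.

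Top genes often carried probe sets numbered in the same cluster as those of other genes. In 22 of 86 top genes with a cluster number (25.6%) that number held several symbols, against 126 of 5722 (2.20%) over all genes. Cluster 3121 held MYL2, GOT2 and COX4I1, 307 held ACTA1 and CSRP3, 4486 held MYL3 and MYH7, 740 held SLC25A4 and NDUFB6, and 12195 held ACTC1 and FHL1. No source used here says how the clusters were made.

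Some of the array maker's dog controls, left out of the ranking, fell from the 3′ to the 5′ end of a transcript. One GAPDH set read 19699, 18235 and 10977 at the 3′ end, 7723, 8138 and 4948 in the middle and 482, 747 and 483 at the 5′ end. A second set had a ratio of 3′ to 5′ of 2.43, 2.78 and 2.53, a mean of 2.58 ± 0.178 (SD, n = 3). An actin set read 21482, 17978 and 11472 at the 3′ end and 69.0, 46.4 and 38.6 at the 5′ end. Another actin set did not fall, reading 2157, 2918 and 1978 at the 3′ end, 726, 731 and 797 in the middle and 3175, 2680 and 1794 at the 5′ end. ACTB, the named beta-actin, read 32.0, 55.7 and 87.9. Whether position in the transcript accounts for the dim probe sets of bright genes was not tested, since positions of the other probe sets were not used here.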
